A study of Mus musculus with 2 samples.

Results

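The 2 miRNAs described here are the arms of one hairpin, mmu-miR-223-3p and mmu-miR-223-5p. They were chosen by name, as the spots of the array that carry either name and are not controls, and they are 2 of the 1881 mouse miRNAs on the array. Of the 2, miR-223-3p was detected on both arrays and miR-223-5p on neither. MiR-223-3p gave 1121 signal units at week-3, against 820 at week-0, and ranked 9th at week-3, against 18th at week-0. Its ratio was 1.37 on background-subtracted signals before any scaling between arrays and 1.79 after quantile scaling.

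The array data come from bone marrow (BM) LSKs (lineage-negative, Sca-1-positive, c-Kit-positive cells), the fraction that holds blood stem cells and early progenitors. All mice were Scl/tTA-BCR/ABL (Scl-BA) animals on a C57BL/6 background, in which a tetracycline-regulated activator under Scl control drives the BCR/ABL fusion gene of chronic myelogenous leukemia (CML). Doxycycline in the drinking water (20 mg/L) holds the transgene off, and its withdrawal switches the gene on. The group 3W_LSK (week-3) was sorted 3 weeks after withdrawal and the group 0W_LSK (week-0) was the control at 0 weeks. Each group was a pool of cells from 3 mice on 1 array, so the groups have no replicates, no test between them was made, and mouse-to-mouse spread is unknown. Transgene and doxycycline history were shared by both groups up to withdrawal. No array of mice without BCR/ABL taken off doxycycline was analysed here, so the effects of BCR/ABL, of the withdrawal and of the elapsed time cannot be told apart. Sex and age were not given in the labels.

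MiR-223 is a miRNA of the myeloid lineage. Its gene lies on the X chromosome, and the factors C/EBPα and PU.1 are known to activate it. Levels are low in stem cells and high in granulocytic precursors and neutrophils, and platelets also hold it. Mice that lack miR-223 make too many granulocytes, and known targets include Mef2c, E2f1, Nfia and Igf1r. A miRNA hairpin is cut into a duplex of a 5p and a 3p strand, of which one is usually loaded into Argonaute and the other is mostly lost. For miR-223 the 3p strand is the one that builds up in cells.

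The mature sequences are shown because target choice rests on the seed, bases 2 to 8, which is in capitals. They were taken from RefSeq on GRCm38.p6, plus strand, at chrX:96242884-96242905 for the 3p arm and chrX:96242842-96242864 for the 5p arm.
miR-223-3p: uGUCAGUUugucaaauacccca
miR-223-5p: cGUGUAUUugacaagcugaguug
The arms have different seeds, and 0 of the other mature miRNAs among 1679 names shared either seed of 7 bases. MiR-344f-5p shares bases 2 to 7 of miR-223-3p and miR-217-3p shares bases 3 to 8, and neither was detected on either array.

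The hairpin, Mir223, spans 110 bases at chrX:96242817-96242926. It is shown with the arms in capitals, 5p first, so that the duplex can be followed.
Mir223: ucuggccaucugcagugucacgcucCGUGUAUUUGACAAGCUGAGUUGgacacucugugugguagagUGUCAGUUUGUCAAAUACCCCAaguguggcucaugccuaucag
In the minimum free energy fold (-44.0 kcal/mol), 15 of the 22 bases of the 3p arm paired with the 5p arm, and 19 bases lay between the arms. The hairpin lies inside the annotated span of a long non-coding RNA, F630028O10Rik (chrX:96239926-96243642), on GRCm38.p6. Its protein-coding neighbours in the annotation are Msn, which encodes moesin, and Vsig4, a receptor gene of macrophages (chrX:96247201-96293438).

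The probes are shown because each arm was read by probes of several lengths that share their start. Capitals mark the bases that a longer probe adds to the shortest one.
3p probe, 20 bases: tggggtatttgacaaactga
3p probe, 21 bases: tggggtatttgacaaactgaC
5p probe, 15 bases: caactcagcttgtca
5p probe, 16 bases: caactcagcttgtcaA
5p probe, 17 bases: caactcagcttgtcaAA
The 3p probes are complementary to bases 3 to 22 and 2 to 22 of miR-223-3p, so only the longer one covers the whole seed. The 5p probes are complementary to bases 9 to 23, 8 to 23 and 7 to 23 of miR-223-5p and leave most of that seed unread. Runs of up to 11 bases were shared by the 3p probes and miR-223-5p, and the longest run shared with a probe of another miRNA was 8 bases for the 3p probes and 10 bases for the 5p probes.

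There were 58594 spots per array, 56430 of them for miRNAs, with 0 saturated miRNA spots. The scanner software detected 193 miRNAs at week-3 (10.3%) and 178 at week-0 (9.46%), of which 158 were shared. The 2 brightest miRNAs held 38.0% of the summed signal of detected miRNAs at week-3, against 25.1% at week-0, which bears on any scaling that uses that sum. The arrays shared 1 slide.

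Both 3p probes were brighter at week-3, by nearly the same ratio. The 20-base probe averaged 318 ± 10.4 signal units at week-3 (SD over 12 spots) and 231 ± 12.2 at week-0 (SD over 15 spots). The median spot was at 319 at week-3 and at 233 at week-0. Its spots ran between 293 and 336 at week-3 and between 207 and 252 at week-0, so the spots did not overlap. The lowest week-3 spot stood 41.4 units above the highest week-0 spot. The 21-base probe averaged 803 ± 25.4 units at week-3 (SD over 15 spots) and 590 ± 29.0 at week-0 (SD over 14 spots). Its spots ran between 759 and 848 at week-3 and between 529 and 639 at week-0, again with no overlap and a gap of 120 units. These signals were background-subtracted and not scaled between arrays. Every spot of both 3p probes was flagged well above background on both arrays (15 of 15 per probe).

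The ratio of week-3 over week-0 was 1.38 for the 20-base probe (log2 0.47, SE 0.02) and 1.36 for the 21-base probe (log2 0.45, SE 0.02). The SE here and below is over spots within the arrays and covers technical error only. The probe that lacks the first base of the seed and the probe that holds it therefore differed between groups by the same ratio within this error. The background taken off the 20-base probe was 40.8 units at week-3 and 42.9 at week-0, and it was 40.7 at week-3 and 42.7 at week-0 for the 21-base probe. With the raw spot signal, from which nothing was subtracted, the ratios were 1.31 and 1.33.

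The spot-by-spot comparison gave the same direction at every place on the array. Spots of the 3p probes at the same row and column of both arrays made 26 pairs in which neither spot was an outlier, and week-3 was the higher in 26 of 26. The ratios ran between 1.27 and 1.46 with a median of 1.37 (SD of the log2 ratio 0.05). The median ratio was 1.35 in the upper part of the array (14 pairs) and 1.38 in the lower part (12 pairs), and 1.37 both left (12 pairs) and right of the middle (14 pairs). The ratio was thus much the same across the surface. The 4 pairs with an outlier spot had ratios of 1.14, 1.22, 1.83 and 1.49, so week-3 was the higher in those as well.

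**Figure D1:**
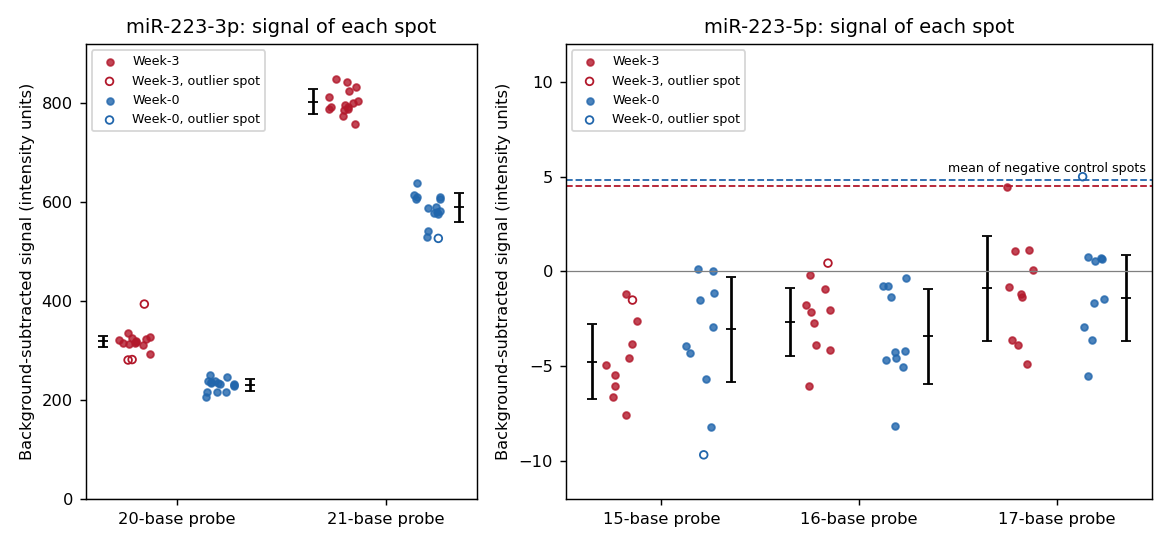
Background-subtracted signal of each spot (y axis, intensity units) for the probes of miR-223-3p (left panel) and miR-223-5p (right panel, with a smaller scale), week-3 in red and week-0 in blue. Bars are the mean ± SD over non-outlier spots, open symbols are outlier spots, and dashed lines are the means of the negative control spots (4.50 at week-3 and 4.83 at week-0). Leaving out outlier spots, week-3 spots of both 3p probes lie above all week-0 spots, and all 5p probes average below the negative controls.

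MiR-223-5p was not measured above background on either array. Its 15-base probe averaged -4.76 ± 1.98 units at week-3 and -3.06 ± 2.78 at week-0 (SD, 9 spots each). The 16-base probe averaged -2.65 ± 1.80 at week-3 (9 spots) and -3.42 ± 2.52 at week-0 (10 spots), and the 17-base probe -0.90 ± 2.79 at week-3 (10 spots) and -1.38 ± 2.27 at week-0 (9 spots). Of their spots, 0 were flagged well above background. A negative signal means that the spot was dimmer than the background the software had taken off.

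Probe means of the 5p arm were set beside those of all undetected miRNAs. The 10th to 90th percentile of probe means of undetected miRNAs ran between -4.20 and 3.44 units at week-3 and between -4.59 and 3.90 at week-0, with a median of -1.23 at week-3 and -1.30 at week-0. The 5p probes lay within these limits, except the 15-base probe at week-3, which lay below them. The 7 negative control sequences averaged between 3.66 and 6.08 units at week-3 and between 3.98 and 6.58 at week-0, above all 3 of the 5p probes on each array. The authors' normalized table lists miR-223-5p at 2.39 at week-3 and 2.41 at week-0 (log2), where each column's median is 2.48, and flags it as absent in both. No ratio between groups is given for miR-223-5p, since both values are below background.

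The arm balance therefore has a measured side and an unmeasured one. MiR-223-3p summed to 1121 units at week-3 and 820 at week-0, and miR-223-5p to -8.30 at week-3 and -7.86 at week-0. Signals of different probes do not order the abundance of their miRNAs, so no 3p over 5p ratio is given. A change in the balance between the groups could not be measured, because the 5p arm gave no level in either. That pattern, 3p detected on both arrays and 5p on neither, was found for 29 of the 723 hairpin names with both arms on the array (4.01%). The opposite pattern held for 56 (7.75%), and both arms were detected on both arrays for 6 (0.830%). Among those 29 hairpins, miR-223 had the 2nd highest summed signal and the 4th highest difference, and the median log2 difference of the 29 was -0.10.

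Summed over its probes, miR-223-3p had 1121 units at week-3 (SE 7.22) and 820 at week-0 (SE 8.37). It held 1.82% of the summed signal of detected miRNAs at week-3 and 1.38% at week-0. Leaving the 2 brightest miRNAs out of the sum, the share was 2.93% at week-3 and 1.84% at week-0. Its signal was 15.7 times the median of detected miRNAs at week-3 and 9.61 times at week-0, where that median was 71.4 units at week-3 and 85.3 at week-0. MiR-223-3p was thus among the brightest readings of both arrays, and higher in rank and share at week-3. Levels in bulk cells cannot separate more cells of a type from more RNA per cell.

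**Figure D2:**
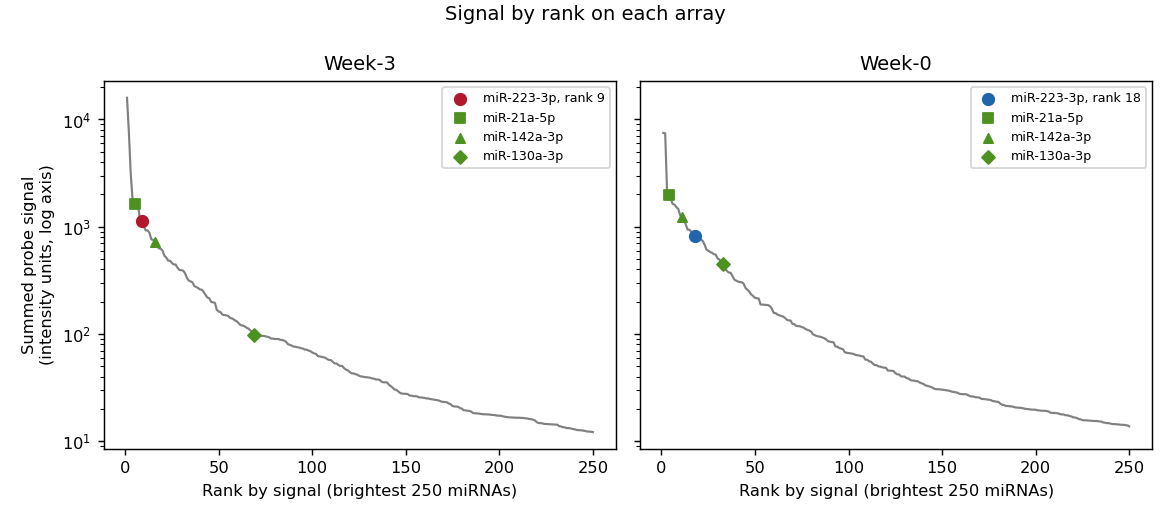
Summed probe signal (y axis, log scale, intensity units) of the 250 brightest miRNAs in order of signal (x axis), week-3 on the left and week-0 on the right. MiR-223-3p (circle) stands at rank 9 at week-3 and at rank 18 at week-0, and 3 other miRNAs of the myeloid list are marked for comparison across the panels.

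After quantile scaling, which gives both arrays the same set of values, miR-223-3p was at 10.34 (log2) at week-3 and at 9.50 at week-0. The difference was 0.84, or 1.79-fold (SE 0.02 over spots, taken on signals before scaling and without the error of the scaling). This passed the ratio of 1.5 that the study used to call a miRNA higher, so 1 of the 2 arms was called. At that ratio 25.8% of the miRNAs detected on at least 1 array were called higher (55 of 213), and 28.6% were lower at a ratio of 0.67 or less (61 of 213). Among the 158 detected on both arrays, 19.0% were called higher, the median log2 difference was -0.04, and miR-223-3p ranked 21st by difference. A call at this ratio was thus common on these arrays.

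The size of the miR-223-3p difference followed the scaling, while its direction did not change in any setting. Across 21 settings week-3 was the higher in 21, with log2 differences between 0.40 and 0.84, or 1.32-fold to 1.79-fold. The ratio of 1.5 was passed in 16 settings and missed in 5, while the share of detected miRNAs called higher ran between 4.23% and 33.3% over the settings. Every setting with quantile normalization passed, and many of these changed only another step. The 5 that missed were all without quantile normalization. With no normalization between arrays the difference was 0.45 (1.37-fold), and 20.2% of detected miRNAs were called higher (43 of 213) and 35.7% lower (76 of 213). Setting the sum of detected signals equal gave 0.40, and setting it equal without the 2 brightest miRNAs gave 0.67. Setting the 9 bright positive control probes to a median ratio of 1 gave 0.51, and those controls had ratios between 0.772 and 1.69 among themselves.

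Set against the other miRNAs, miR-223-3p stood above the median in each setting. With no scaling, the 158 miRNAs seen on both arrays had a median difference of -0.18, and miR-223-3p lay 0.63 above it, or 1.55-fold. Over all 21 settings it lay between 0.52 and 0.89 above that median on the log2 scale, and ranked between 7th and 31st of 158 by difference. Settings that only multiply an array by a constant leave the distance at 0.63 and the rank at 31st by arithmetic. Those settings therefore repeat the unscaled reading. The authors' normalized table gave 9.41 at week-3 and 8.66 at week-0, a log2 difference of 0.74 (1.68-fold), with 24.4% of detected miRNAs called higher there. With normexp background correction, which adds an offset to the corrected signal, it was 0.74 (1.67-fold) and 5.16% were called higher. With the RMA-like summary, which also adds the offset, it was 0.62 (1.54-fold) and 4.23% were called higher. Ratios of dim miRNAs are pulled to 1 by this offset.

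**Figure D3:**
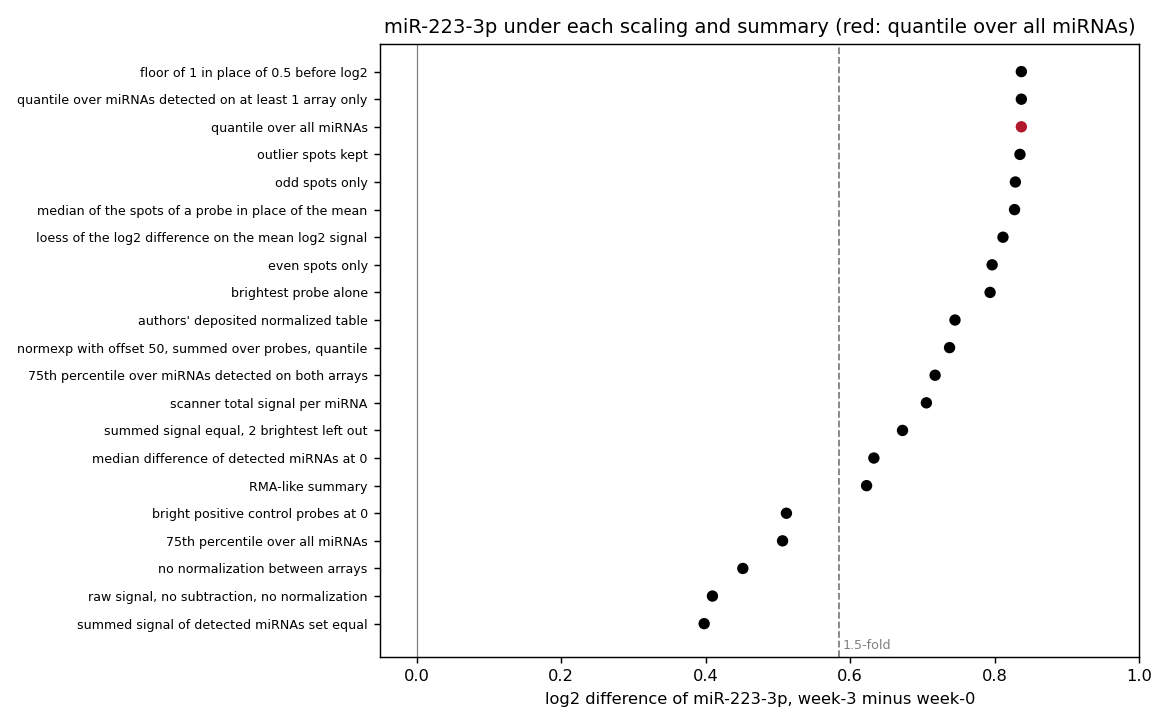
Log2 difference of miR-223-3p, week-3 minus week-0 (x axis), under each of the 21 settings (y axis), with the ratio of 1.5 as a dashed line and quantile scaling over all miRNAs in red. All points lie right of 0, between 0.40 and 0.84, and 5 lie left of the dashed line.

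Most readings of like brightness were lower at week-3. Among the 10 miRNAs detected on both arrays whose mean log2 signal was within 0.5 of miR-223-3p, the median unscaled log2 difference was -0.78, with a range of -1.12 to 1.01. Of these 10, 2 were above 0 and 1 was above miR-223-3p. After quantile scaling the median was -0.45 (range -0.81 to 1.28), and again 2 were above 0. For single probes, the 25 of like brightness to the 20-base probe had a median unscaled difference of -0.67, with 8 above 0 and 3 above that probe. The 10 of like brightness to the 21-base probe had a median of -0.27, with 4 above 0 and 2 above that probe.

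**Figure D4:**
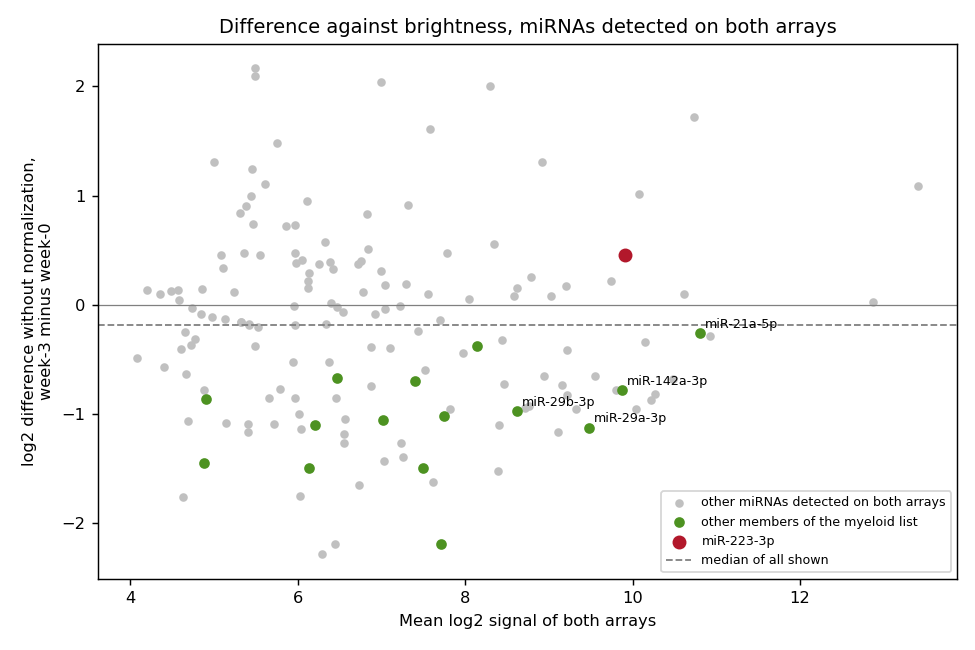
Log2 difference without normalization, week-3 minus week-0 (y axis), against the mean log2 signal of both arrays (x axis) for the 158 miRNAs detected on both. MiR-223-3p (red) lies at 0.45, above the median of all shown (dashed, -0.18), and the other myeloid list members (green) all lie below 0.

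The 5 miRNAs nearest to miR-223-3p in scaled log2 signal over both arrays, by Euclidean distance over 2 arrays, were miR-5126, miR-1224-5p, miR-20a-5p, miR-142a-3p and miR-15b-5p. Here and below, units are before scaling between arrays, and differences are after quantile scaling unless stated. MiR-5126 was the nearest (distance 0.31), with 924 units at week-3 and 793 at week-0 and a difference of 0.56. MiR-1224-5p had 1538 units at week-3 and 762 at week-0 and the higher difference of 1.28. MiR-20a-5p, a cluster partner of miR-17, had a difference of 0.00 (-0.34 without normalization), with 1011 units at week-3 and 1277 at week-0. The other two, miR-142a-3p and miR-15b-5p, had differences of -0.42 and -0.29. Only miR-1224-5p of the 5 was past 1.5-fold.

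By size of difference, the miRNAs just above miR-223-3p were miR-6360 (1.06), miR-7036a-5p (0.97), miR-3473g (0.97), miR-6973b-5p (0.91) and miR-3098-5p (0.89). Those just below were miR-2137 (0.80), miR-7118-5p (0.79), miR-6769b-5p (0.78), miR-27b-3p (0.76) and miR-202-3p (0.72). In signal these 10 ran up to 395 units at week-3 and 268 at week-0 (miR-3473g). Without normalization between arrays all 10 had higher differences than miR-223-3p, between 0.48 and 0.99 against 0.45. With the RMA-like summary, whose offset pulls ratios of dim miRNAs to 1, their differences lay between 0.22 and 0.57, against 0.62 for miR-223-3p.

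In the list of 22 myeloid miRNAs, 17 were detected on at least 1 array, and miR-223-3p was the one member of the 17 with a difference above 0. After quantile scaling 1 was called higher and 10 lower, and 6 lay between the ratios, where 25.8% of all detected miRNAs were called higher and 28.6% lower. The median log2 difference of the 17 was -0.78, and -0.79 without miR-223-3p, against 0.00 over the 213 miRNAs detected on at least 1 array. Without normalization 0 were called higher and 14 lower (20.2% and 35.7% over all detected miRNAs), with a median of -1.02 against -0.15, and miR-223-3p alone was above 0. With the RMA-like summary miR-21a-5p also lay just above 0. The 10 members called lower after quantile scaling then lay between -1.18 (miR-130a-3p) and -0.13 (miR-146b-5p). The number of lower calls thus depended on the processing. The members not detected were miR-223-5p, miR-503-5p, miR-328-3p, miR-9-5p and miR-182-5p. The list is not specific to myeloid cells and overlaps the marker lists below. It shares miR-130a-3p and miR-155-5p with the LSK markers, miR-181a-5p with the lymphoid markers, and both miR-142a arms with the pan-blood markers.

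The brightest other members, miR-21a-5p, miR-142a-3p and miR-29a-3p, gave less signal at week-3. MiR-21a-5p, which many activated and leukemic cells hold at high levels, had 1635 units at week-3 and 1956 at week-0. Its difference was -0.11, and -0.26 without normalization. MiR-142a-3p, found in all blood lineages, had 715 at week-3 and 1229 at week-0 (-0.42, and -0.78 without normalization). MiR-29a-3p had 482 at week-3 and 1051 at week-0 (-0.81), and miR-29b-3p had 280 at week-3 and 550 at week-0 (-0.54). Among members measured at both times, the lowest differences belonged to miR-130a-3p (98.3 units at week-3 and 448 at week-0, -1.75), miR-34a-5p (17.7 at week-3 and 48.5 at week-0, -1.32) and miR-181a-5p (41.8 at week-3 and 118 at week-0, -1.30). MiR-146a-5p, a brake on inflammatory signalling, was detected at week-0 alone (2.99 units at week-3, 36.8 at week-0).

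Beside miR-29a-3p, miR-130a-3p, miR-34a-5p, miR-181a-5p and miR-146a-5p, the members called lower were miR-322-5p (-1.13), miR-30c-5p (-0.97), miR-142a-5p (-0.80), miR-146b-5p (-0.78) and miR-23a-3p (-0.70). Beside miR-21a-5p, miR-142a-3p and miR-29b-3p, the members between the ratios were miR-155-5p (-0.57), miR-27a-3p (-0.30) and miR-24-3p (-0.09). The last of these can be cut from the same transcript as miR-23a-3p and miR-27a-3p, but its signal cannot be assigned to that transcript alone.

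**Figure D5:**
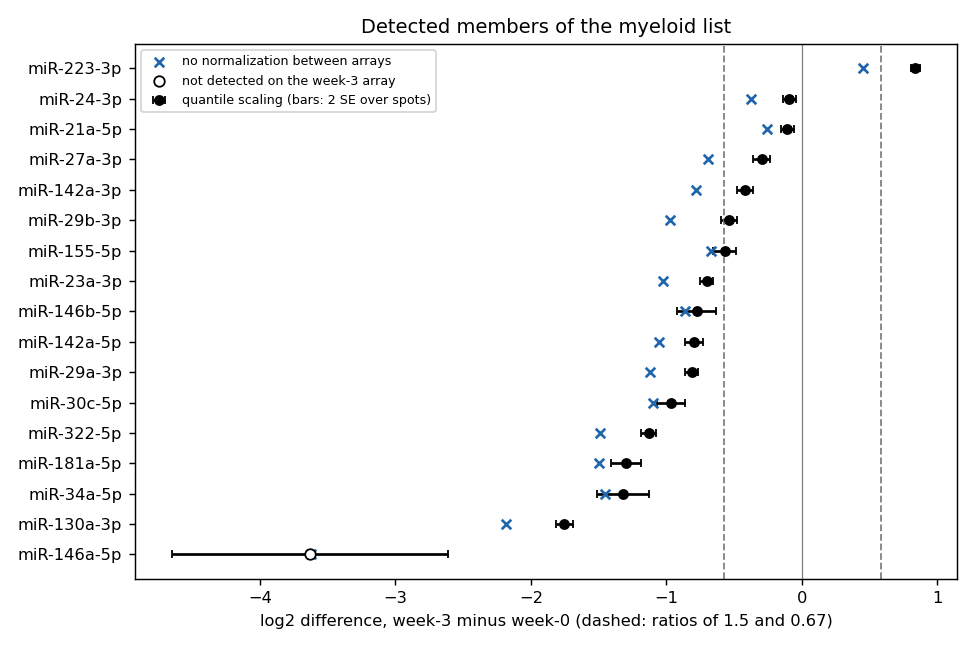
Log2 difference, week-3 minus week-0 (x axis), of the 17 detected members of the myeloid list (y axis), after quantile scaling (black, bars 2 times the SE over spots) and without normalization (blue crosses), with dashed lines at ratios of 1.5 and 0.67. The SE was taken on signals before scaling and leaves out the error of the scaling. MiR-223-3p is the member right of 0 on both scales, and the open symbol is miR-146a-5p, which was not detected at week-3 and whose position is no bound.

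A list of miRNAs linked to C/EBP factors or PU.1 lay wholly within the myeloid list, so its counts repeat members given above. Most are activated as miR-223 is, with miR-182-5p known as one that C/EBPα represses. Of 12 in the list, 10 were detected (miR-182-5p and miR-328-3p were not), 1 was called higher (miR-223-3p), 5 were called lower and 4 lay between the ratios. Over all detected miRNAs 25.8% were called higher and 28.6% lower. The median difference was -0.62, and -0.70 without miR-223-3p. Without normalization 0 were called higher and 8 lower, where 20.2% of all detected miRNAs were called higher and 35.7% lower.

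Markers of other blood and tissue cells were read beside miR-223-3p. The sort used lineage depletion and a lineage antibody panel, which are meant to remove mature granulocytic, erythroid and lymphoid cells. The purity of the sorted pools was not tested here. For LSKs, 7 of 8 markers were detected at week-3 and 8 of 8 at week-0, and their summed signal was 483 units at week-3 and 1597 at week-0. Of these 8, 0 were called higher and 7 lower (25.8% and 28.6% over all detected miRNAs), with a median difference of -1.61. The size depended on the processing: with the RMA-like summary the 8 lay between -1.18 (miR-130a-3p) and -0.21 (miR-125a-5p). MiR-125a-5p was the marker not detected at week-3. The miR-142a arms, held by all blood cells, summed to 805 units at week-3 and 1416 at week-0. Signal of stem cell and pan-blood miRNAs was thus lower at week-3 while miR-223-3p was higher, and their part in that difference was not tested.

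For erythroid cells, 1 of 4 markers was detected, miR-451a, at week-0 alone (8.95 units at week-3 and 48.9 at week-0), and both arms of miR-144 were undetected. For lymphoid cells, 2 of 4 were detected, summing to 50.6 units at week-3 and 146 at week-0, and the lymphocyte miRNA miR-150-5p was undetected. Of 4 megakaryocyte or platelet markers, 2 were detected. They were miR-223-3p itself, called higher, and miR-126a-3p, called lower (25.8% and 28.6% over all detected miRNAs). Platelets and megakaryocytes hold miR-223 and miR-126 together. MiR-126a-3p, also counted above as an LSK marker, had 94.3 units at week-3 and 248 at week-0, a difference of -1.09. Of 5 stromal or endothelial markers and 7 markers of other tissues, 0 were detected. The first of these lists held miR-126a-5p, whose other arm, miR-126a-3p, was detected on both arrays. The list of granulocytic markers held only the miR-223 arms, so the part of granulocytic cells within the sorted LSKs in the miR-223-3p difference was not tested.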

How the data were processed

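MiRNA was measured in Cy3-labelled total RNA of 2 pools of sorted LSKs (3W_LSK and 0W_LSK, 1 Agilent mouse miRNA array each). Feature Extraction 10.7.1.1 was used by the authors on the scans, per the file headers. Scanner files as deposited hold intensity per spot, raw and background-subtracted, with no normalization between arrays. The authors also deposited a table of log2 values, quantile normalized with AgiMicroRna per the study's methods. Its flags matched the scanner's for 1881 of 1881 miRNAs on each array, and its background step is not given in the sources used here.

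Control and outlier spots (1600 at week-3, 1941 at week-0) were left out. Background-subtracted signals were averaged per probe, summed per miRNA and quantile normalized over 1881 miRNAs. Values under 0.5 were raised to 0.5 before log2. Detection is the scanner's flag. Calls used ratios of at least 1.5 or at most 0.67 over miRNAs detected on at least 1 array. With 1 array per group no test was made, and the number of arrays limits the precision. Alternatives changed the scaling, the summary of spots and probes, the background and the floor. Loess used a span of 0.4, normexp an offset of 50 on the corrected signal, and bright controls a signal of at least 1000.

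Named beside both arms were the 5 miRNAs nearest in level, the 5 on either side by difference, and the detected myeloid list members. The members and lists were chosen with earlier results of these data known. Sequences came from the files (probes) and RefSeq (miRNAs). Tools were Python 3.11.15, numpy 2.4.6, pandas 2.3.3, statsmodels 0.14.6, R 4.3.3, limma 3.58.1 and ViennaRNA 2.7.2.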

Additional observations from a re-analysis of the deposited data

How the results depend on the processing

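The miR-223-3p difference (0.84, log2) was positive in all 20 alternatives. It was past the ratio of 1.5 in 15 of them, including all with quantile normalization. It was 0.45 without normalization, 0.51 with the 75th percentile of all miRNAs, 0.72 with that percentile over miRNAs detected on both arrays, 0.40 with equal sums of detected signal and 0.67 with equal sums without the 2 brightest. Setting positive controls equal gave 0.51, the scanner total 0.71, normexp 0.74, the RMA-like summary 0.62 and the values normalized by the authors 0.74. Of 2 settings chosen after seeing the data, raw signal gave 0.41 and a median difference of 0 gave 0.63. The other 8 gave 0.79 to 0.84. The cause was not tested.

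The count of miRNAs called higher (55) was 11 with normexp, 9 with the RMA-like summary, 32 at 2-fold and 30 over miRNAs detected on both arrays, and 43 to 71 in 15 others. Higher and lower calls split 43 to 78 with equal sums and 9 to 36 with raw signal. The week-3 rank (9) was 14 with the scanner total and 7 to 9 in 8 others, and the week-0 rank (18) was 17 to 26. MiR-223-5p was undetected, so no alternative gave its difference or the arm balance. The planned scaling on a small nucleolar RNA probe was not run, as no such probe was found in the files. No paired analysis was possible because each group had 1 array.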
